A study of Homo sapiens with 16 samples.

Results

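Transcripts of 10 genes that run mitosis were followed in HEK293T cells: the kinases AURKA, AURKB, PLK1, PLK4 and BUB1, the Aurora activator TPX2, the kinesins KIF14 and KIF2C, the cytokinesis scaffold ANLN and the cyclin CCNB1. The genes were taken by symbol from the deposited count and TPM tables, and they are 10 of 57500 genes in those tables. HEK293T is a line from human embryonic kidney with the large T antigen of SV40. Each of 4 groups had 4 libraries of total RNA. Cells with a lentiviral vector for histone H2A received DMSO, 1 µM JQ1 for 3 h or 2.5 µM pinometostat for 24 h, and cells with a lentiviral vector for H2A(E92K) received DMSO. In H2A(E92K) a lysine replaces a glutamate of the acidic patch, a charged face of the nucleosome to which many chromatin proteins bind. JQ1 blocks the acetyl-lysine pockets of BET proteins, and pinometostat blocks DOT1L, which methylates histone H3. The labels name no deletion of the cells' own H2A genes, and they give no promoter for the vector, no clone and no time with DMSO. The same 4 H2A libraries with DMSO are the controls of the 3 h and the 24 h treatment, so that time or handling cannot be told apart from the compound.

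Cyclin B1 with CDK1 drives cells into mitosis, and Aurora and Polo-like kinases then act on centrosomes, spindle, kinetochores and cleavage furrow. Messages of most such genes build up towards G2 and mitosis, where the MuvB complex with B-MYB or FOXM1 acts through a promoter element called CHR, often beside CCAAT boxes bound by NF-Y. Afterwards many of the proteins are broken down through the anaphase-promoting complex. In RNA from a whole culture, fewer cells in a cycle phase and less RNA of a gene per cell cannot be told apart.

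The promoters of members that passed in at least 1 of the 6 tests are shown because the comparisons below turn on them, with CCNB1 as a member that passed in none. RefSeq (GRCh38.p14) gave a promoter window for 8 of the 10 genes, and the windows of AURKA and TPX2 were not used here. A window runs from 250 bases before to 50 bases after a transcript start, and its first 280 bases are printed 5′ to 3′. Capitals mark the CHR cores TTTGAA and TTTAAA, the NF-Y box CCAAT and the E-box CACGTG, searched on both strands, so that TTCAAA and ATTGG are the same motifs on the other strand. AURKB has 2 listed starts and PLK4 has 3, of which the first is printed. For PLK4, the TTTGAA match at bases 39 to 44 after that start lies past the printed run. The CCAAT match of PLK4 lies only in the window of start 3, from 86 to 82 bases before it, which is not printed.
KIF14, chr1:200620722-200621001, minus strand: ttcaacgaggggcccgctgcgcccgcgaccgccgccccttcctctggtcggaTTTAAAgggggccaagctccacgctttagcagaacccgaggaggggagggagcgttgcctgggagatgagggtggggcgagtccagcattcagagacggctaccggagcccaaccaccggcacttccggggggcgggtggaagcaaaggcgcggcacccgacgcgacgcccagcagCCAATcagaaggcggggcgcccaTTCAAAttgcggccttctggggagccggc
PLK4, chr4:127880643-127880922, plus strand: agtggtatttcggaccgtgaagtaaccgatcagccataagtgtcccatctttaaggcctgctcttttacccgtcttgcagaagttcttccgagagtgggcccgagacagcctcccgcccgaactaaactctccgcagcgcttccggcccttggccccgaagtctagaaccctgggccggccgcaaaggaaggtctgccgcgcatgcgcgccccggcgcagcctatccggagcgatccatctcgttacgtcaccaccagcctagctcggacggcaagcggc
ANLN, chr7:36389612-36389891, plus strand: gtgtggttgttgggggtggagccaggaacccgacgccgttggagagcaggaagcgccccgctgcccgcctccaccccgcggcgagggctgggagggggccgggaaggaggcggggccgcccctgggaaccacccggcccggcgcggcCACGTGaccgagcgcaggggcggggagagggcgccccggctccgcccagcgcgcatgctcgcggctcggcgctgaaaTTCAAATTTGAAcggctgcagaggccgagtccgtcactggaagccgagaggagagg
KIF2C, chr1:44739587-44739866, plus strand: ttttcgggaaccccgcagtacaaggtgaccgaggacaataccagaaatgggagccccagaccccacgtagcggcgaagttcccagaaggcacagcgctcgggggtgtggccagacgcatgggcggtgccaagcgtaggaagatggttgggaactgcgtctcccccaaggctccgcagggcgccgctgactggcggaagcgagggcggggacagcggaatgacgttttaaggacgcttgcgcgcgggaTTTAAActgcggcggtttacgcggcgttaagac
AURKB, chr17:8210196-8210475, minus strand: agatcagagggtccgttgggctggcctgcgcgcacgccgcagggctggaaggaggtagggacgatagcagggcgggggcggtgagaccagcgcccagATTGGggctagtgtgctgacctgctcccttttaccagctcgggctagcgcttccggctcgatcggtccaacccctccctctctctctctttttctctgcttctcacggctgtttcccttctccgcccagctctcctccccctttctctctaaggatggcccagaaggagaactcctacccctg
CCNB1, chr5:69166900-69167179, plus strand: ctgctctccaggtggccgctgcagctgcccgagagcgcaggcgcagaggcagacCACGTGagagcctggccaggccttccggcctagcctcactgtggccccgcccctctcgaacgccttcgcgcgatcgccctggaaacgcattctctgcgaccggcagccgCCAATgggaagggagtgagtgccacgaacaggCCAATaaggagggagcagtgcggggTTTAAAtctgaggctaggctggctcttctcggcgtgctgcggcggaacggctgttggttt
A CHR core of either form was present in 6 of the 8 genes, against 24% of all 35116 windows. TTTGAA was found in ANLN, KIF14, PLK1 and PLK4 (15.2% of all windows), and TTTAAA in CCNB1, KIF14, KIF2C and PLK1 (12.2%). CCAAT was found in AURKB, BUB1, CCNB1, KIF14, PLK1 and PLK4 (34.6%), and the E-box in ANLN, CCNB1 and PLK1 (7.26%). In ANLN a TTCAAA and a TTTGAA stand end to end, from 26 to 15 bases before the start. KIF2C carries its TTTAAA across the start itself. None of the 8 genes held any of the E2F words TTTGGCGC, TTTCCCGC, TTTGCCGC or TTTCGCGC (3.31% of all windows). These are matches of letters only. AURKB and PLK4 had several windows each, which raises their chance of a match over that of a gene with a single window.

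**Figure D1:**
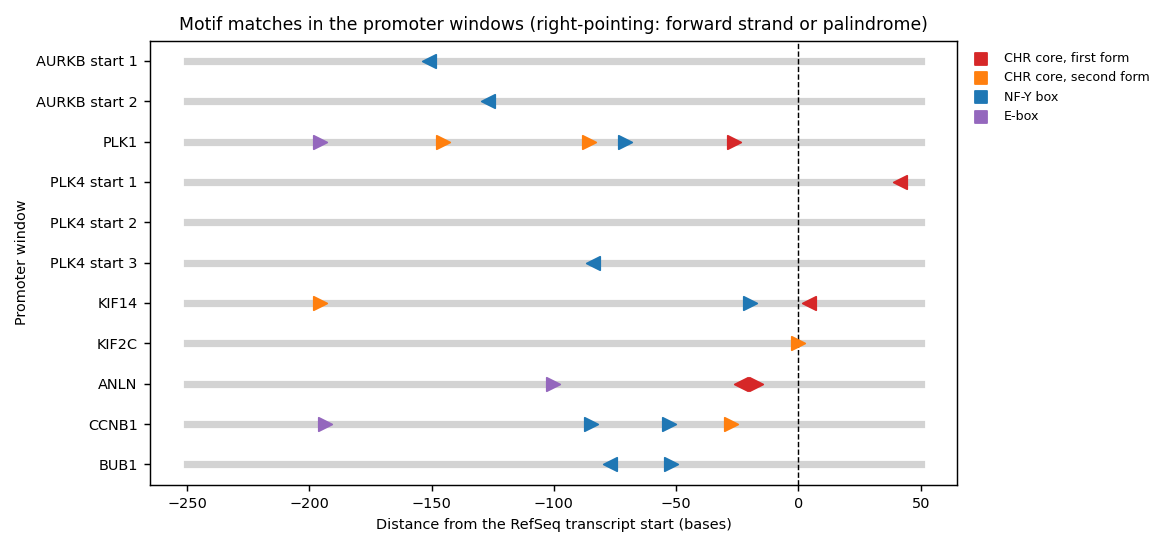
Positions of CHR cores, NF-Y boxes and E-boxes in the 11 RefSeq promoter windows of 8 genes, by distance in bases from the transcript start (dashed line); grey bars are the windows and triangles point with the strand of the match. CHR cores lie in 6 genes, and BUB1 and AURKB carry NF-Y boxes without one.

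Library totals ran from 17779692 to 27599686 counts, and the gene counts of the 10 members ran from 256 (KIF14) to 7434 (CCNB1). The mitochondrial share was 16.5% in JQ1 replicate 1 and 7.45% in E92K replicate 4, against 3.04% to 5.04% in the other 14 libraries. HEK293 markers such as VIM (147 to 261 TPM) and KRT18 (34.1 to 58.5 TPM) were present throughout. HBB was at 0 in all 16 libraries, and PTPRC did not exceed 0.0352 TPM. Nothing in the labels says that the numbered samples came from separate cultures, and the p-values therefore reflect the spread among these libraries alone, part of which may be technical. Effects are log2 fold changes ± SE from the quasi-likelihood test of edgeR, with Benjamini-Hochberg adjustment over 17306 genes and a threshold of 0.05. All 10 members passed the filter on low counts. CPM values use library sizes scaled by TMM, and every mean ± SD has n = 4.

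On the length-scaled TPM scale, the members spanned a wide range of levels in H2A cells with DMSO. CCNB1, the mitotic cyclin, stood highest at 318 ± 10.6 TPM, with all 4 libraries above every library of AURKB (239 ± 32.8 TPM). AURKB is the kinase of the chromosomal passenger complex, which corrects faulty kinetochore attachments. TPX2 (164 ± 23.0 TPM), which activates Aurora A and holds it on microtubules, PLK1 (131 ± 22.1 TPM), the kinase of mitotic entry and centrosome maturation, and AURKA (99.6 ± 9.98 TPM), the centrosomal Aurora kinase, came next. From AURKB down to KIF2C, each gene overlapped with the next in the range of its libraries. KIF2C, a kinesin also called MCAK that takes microtubules apart at their ends, had 76.3 ± 9.12 TPM. BUB1, a checkpoint kinase of kinetochores that phosphorylates histone H2A at centromeres, had 56.2 ± 2.24 TPM and lay apart from KIF2C and from PLK4. PLK4, which starts centriole duplication, and ANLN, the anillin scaffold of the contractile ring, were level at 35.6 ± 1.05 and 35.5 ± 3.12 TPM. KIF14, a kinesin of the central spindle, was lowest at 11.6 ± 1.92 TPM.

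The order was the same by mean in E92K cells, although 6 of the 9 neighbouring pairs overlapped there. With JQ1, AURKA moved from the fifth to the seventh place (53.6 ± 16.7 TPM) and ANLN (44.7 ± 18.9 TPM) passed PLK4 (19.5 ± 6.80 TPM). The ranges of AURKA, BUB1 and ANLN overlapped in that group. With pinometostat, KIF2C (51.8 ± 3.11 TPM) and BUB1 (53.0 ± 4.71 TPM) changed places by mean and overlapped. JQ1 replicate 1 and E92K replicate 4 had the lowest TPM of their groups in all 10 genes. The 10 genes summed to 582 TPM in JQ1 replicate 1 and to 1087 to 1193 TPM in the other JQ1 libraries, while the sums in CPM were 1075 and 1204 to 1299. The part of the mitochondrial share in this was not tested.

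**Figure D2:**
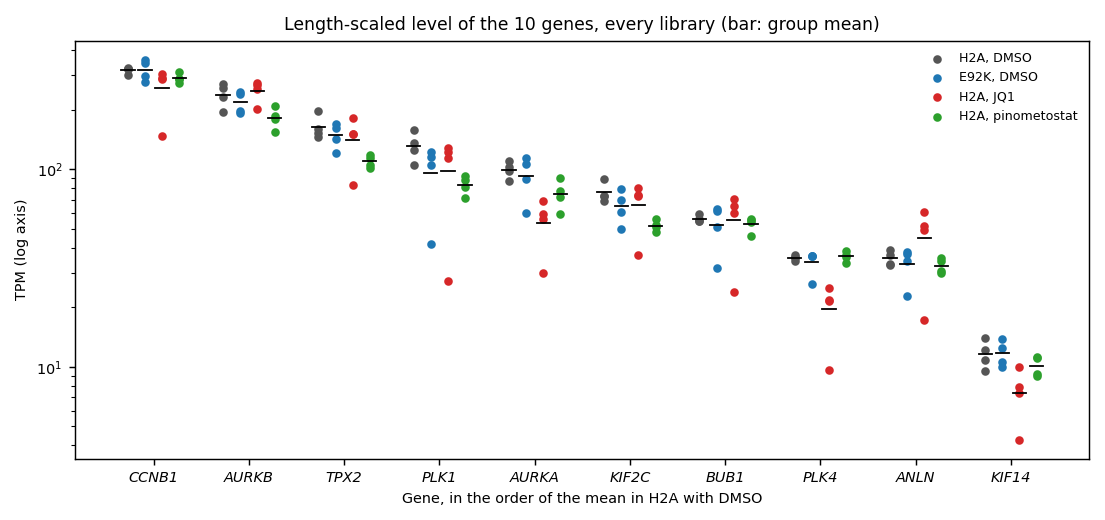
TPM (log axis) of the 10 genes in every library, one point per library and coloured by group, with the group mean as a bar; genes are ordered by the mean in H2A cells with DMSO, from CCNB1 at 318 to KIF14 at 11.6. The lowest red points are JQ1 replicate 1.

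The comparison of E92K with H2A cells, both with DMSO, asked whether the acidic patch substitution went with other levels of these genes. No member passed the test (0 of 10), and 0% of all genes did. Without adjustment, 0 members and 1296 genes (7.49%) had p below 0.05 with edgeR. DESeq2 called 0 members and 4 genes, and limma-voom with library quality weights called 0 members and 1098 genes. The groups overlapped in CPM for all 10 members, where 5.17% of all genes did not overlap. The median size of an effect was 0.03 over the members and 0.16 over all genes tested. All genes tested reach down to the minimum count of 10 in the filter, and these medians were not matched for level. The means of ANLN were the closest, at 65.7 ± 2.38 CPM in H2A and 65.7 ± 8.89 CPM in E92K cells. AURKB had 165 ± 15.1 and 164 ± 21.2 CPM, and its 95% interval ran from -0.29 to 0.29 on the log2 scale. For TPX2 (182 ± 17.6 against 178 ± 8.99 CPM) the interval ran from -0.23 to 0.16, and for PLK4 (49.3 ± 3.25 against 50.4 ± 3.78 CPM) from -0.18 to 0.25. A change in AURKB, TPX2 or PLK4 by 1.5 fold, which is 0.58 on the log2 scale, lay outside those intervals.

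PLK1 had the widest interval of the 10, from -0.90 to 0.19. Its E92K libraries lay at 193, 177, 151 and 76.9 CPM, against 221, 193, 190.1 and 164 CPM in H2A cells. The low value belonged to E92K replicate 4, the library with the raised mitochondrial share, and the effect was -0.36 ± 0.26 with it and -0.17 without it (edgeR Benjamini-Hochberg adjusted p = 0.705 and 0.959). Across the 10 members, E92K replicate 4 was the lowest of its group in 7. BUB1 in E92K cells spread from 74.4 to 123 CPM, against 96.5 to 115 CPM in H2A cells, and its effect was -0.02 ± 0.16. The other members with intervals that include 0 were AURKA (-0.31 to 0.30), KIF14 (-0.12 to 0.37), KIF2C (-0.33 to 0.07), ANLN (-0.31 to 0.31) and CCNB1 (-0.10 to 0.34).

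**Figure D3:**
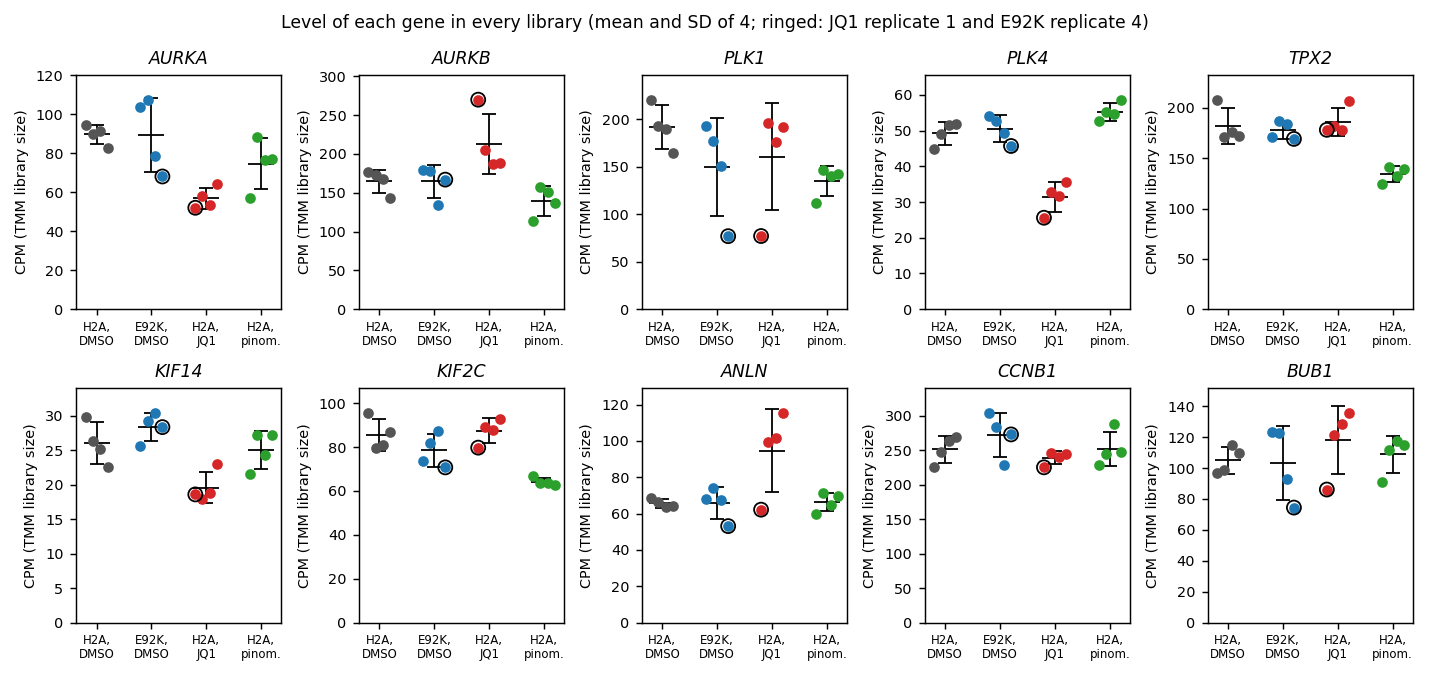
CPM (TMM library sizes, axes from 0) of the 10 genes in every library of the 4 groups, with group mean and SD of 4; JQ1 replicate 1 and E92K replicate 4 are ringed. JQ1 libraries lie below all H2A libraries with DMSO in AURKA and PLK4, and pinometostat libraries below them in TPX2, KIF2C and PLK1.

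The comparison of JQ1 with DMSO asked how the messages stood after 3 h of BET inhibition. AURKA, PLK4 and KIF14 fell and ANLN rose, so that 4 of 10 members passed (1 higher and 3 lower), where 17.6% of all genes passed, 7.16% higher and 10.4% lower. The members did not all move in the same direction, and their median was -0.02, beside 0.04 for all genes. The largest falls were in the kinases of the centrosome and the centriole.

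AURKA lay at 94.6, 89.8, 91.5 and 82.9 CPM with DMSO and at 52.1, 58.2, 53.5 and 64.0 CPM with JQ1. Every JQ1 library was below every DMSO library, and the group mean went from 89.7 ± 4.94 to 57.0 ± 5.39 CPM. PLK4 lay at 44.8, 49.0, 51.5 and 51.8 CPM with DMSO and at 25.6, 32.7, 31.6 and 35.6 CPM with JQ1. These groups were also apart, and PLK4 fell by 0.65 (SE 0.10, adjusted p = 0.000265 with edgeR). For AURKA the log2 fold change was -0.65 (SE 0.15, adjusted p = 0.00445 with edgeR). Both calls held in all 23 other settings, and without JQ1 replicate 1 the effects were -0.64 for AURKA and -0.59 for PLK4.

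KIF14 lay at 29.8, 26.3, 25.2 and 22.6 CPM with DMSO and at 18.6, 17.9, 18.8 and 22.9 CPM with JQ1. The groups overlapped by the highest JQ1 library alone. KIF14 fell by 0.41 (SE 0.12, adjusted p = 0.0213 with edgeR), and the call was lost in 5 of 23 settings, among them those without H2A replicate 1 (adjusted p = 0.0785) or 2 (0.0540) with DMSO and without JQ1 replicate 2 (0.0665) or 3 (0.0578).

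ANLN lay between 63.5 and 68.8 CPM in the 4 libraries with DMSO. With JQ1 it was at 99.3, 101 and 115 CPM in replicates 2 to 4 and at 62.1 CPM in replicate 1, below all controls. ANLN rose by 0.53 ± 0.15 (edgeR Benjamini-Hochberg adjusted p = 0.0195), and by 0.65 without replicate 1 (0.000129). The call was lost in 8 of 23 settings, with 0.37 under library size alone (adjusted p = 0.210) and 0.19 on log2(TPM + 1) (limma, 0.679). Leaving out H2A replicate 3 (0.0565) or 4 (0.0508) with DMSO, or JQ1 replicate 2 (0.0501) or 4 (0.0537), also took the edgeR adjusted p past the threshold. ANLN shares 78 exonic bases with KIAA0895 on the opposite strand (184 to 711 counts), and the strand setting of the counting is not given, so reads of the pair in that stretch cannot be told apart.

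AURKB, the kinase that pairs with INCENP, lay above all DMSO libraries in each JQ1 library (187 to 269.8 against 143 to 176 CPM) and did not pass (0.37 ± 0.14, edgeR Benjamini-Hochberg adjusted p = 0.0742). With AURKA and PLK4 that made 3 of 10 members whose groups did not overlap in CPM, where 20.5% of all genes did not. JQ1 replicate 1 held the highest AURKB value, and without it the effect was 0.20 (adjusted p = 0.253), while DESeq2 called AURKB (0.38, adjusted p = 0.0498). In TPM the groups of AURKB overlapped, at 202 to 273 with JQ1 and 195 to 269 with DMSO. Its effect was 0.06 on log2(TPM + 1) (limma adjusted p = 0.800) and 0.16 under library size alone (edgeR adjusted p = 0.395). PLK1 was split in the JQ1 group: replicate 1 lay at 77.1 CPM and replicates 2 to 4 at 196, 177 and 192 CPM, within the range with DMSO. Its effect of -0.26 ± 0.26 (edgeR Benjamini-Hochberg adjusted p = 0.546) was -0.06 without replicate 1. TPX2 (0.03, interval -0.17 to 0.23), KIF2C (0.03, -0.17 to 0.23), CCNB1 (-0.07, -0.29 to 0.15) and BUB1 (0.17, -0.17 to 0.51) did not pass, although BUB1 was called by limma-voom with library quality weights (0.27, adjusted p = 0.0322). The median of all genes was 0.04 with TMM, -0.14 without TMM and -0.21 on TPM, where the effects of TPX2 and KIF2C were -0.26 and that of BUB1 -0.14, none of them called.

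**Figure D4:**
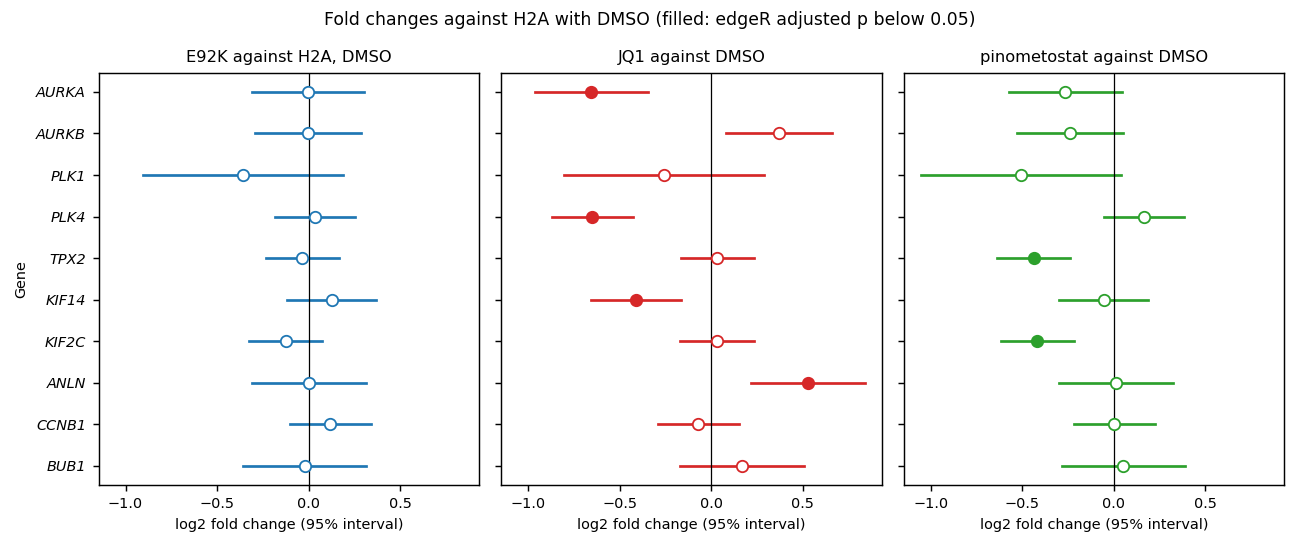
Log2 fold changes against H2A cells with DMSO and their 95% intervals for the 10 genes in the 3 comparisons; filled points have an edgeR adjusted p below 0.05. Filled are AURKA, PLK4, KIF14 and ANLN with JQ1 and TPX2 and KIF2C with pinometostat, and no point in E92K cells.

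Ratios of TPM within a library do not depend on its scaling, and 4 ratios were chosen after the values were seen. They are given as a description. AURKA was 0.560 to 0.647 of TPX2 with DMSO and 0.360 to 0.393 with JQ1, replicate 1 included. AURKA was 0.398 to 0.445 of AURKB with DMSO and 0.148 to 0.260 with JQ1. ANLN was 2.79 to 3.44 times KIF14 with DMSO and 4.05 to 6.71 times with JQ1, with the lowest of the JQ1 ratios in replicate 1. None of these 3 ranges overlapped between DMSO and JQ1. With pinometostat they were 0.565 to 0.768, 0.383 to 0.432 and 3.10 to 3.37, each overlapping that with DMSO. PLK4 was 0.215 to 0.335 of PLK1 in H2A cells with DMSO and 0.177 to 0.353 with JQ1. Those ranges overlapped by JQ1 replicate 1 alone, at 0.353, while replicates 2 to 4 lay at 0.177, 0.190 and 0.196. With pinometostat the ratio was 0.398 to 0.500, above every ratio of H2A cells with DMSO. In E92K cells with DMSO it was 0.297 to 0.630, with the highest in replicate 4.

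The comparison of pinometostat with DMSO asked how the messages stood after 24 h of DOT1L inhibition. TPX2 and KIF2C, both of which act on spindle microtubules, fell, and 0 members rose. With 2 of 10 members called, the background was 8.2% of all genes in either direction, 3.62% higher and 4.58% lower. The median of the members was -0.15, beside 0.03 for all genes.

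TPX2 lay at 208, 171, 176 and 172 CPM with DMSO and at 124, 141, 133 and 139 CPM with pinometostat. The groups were apart, with the highest control in H2A replicate 1. TPX2 fell by 0.44 (SE 0.10, adjusted p = 0.0132 with edgeR). KIF2C lay at 95.6, 79.4, 80.9 and 86.7 CPM with DMSO. It was at 66.6, 63.5, 63.9 and 62.6 CPM with pinometostat, the smallest SD (1.76) of any member in any group. KIF2C fell by 0.42 (SE 0.10, adjusted p = 0.0156 with edgeR). Neither gene was called on log2(TPM + 1) (limma adjusted p = 0.112 for TPX2 and 0.154 for KIF2C), where the effects were -0.57 and -0.55. Without pinometostat replicate 1 the edgeR adjusted p for TPX2 was 0.0506, and without H2A replicate 1 with DMSO that for KIF2C was 0.0561.

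PLK1 lay at 112, 147, 139.8 and 142 CPM with pinometostat, below all 4 control libraries (164 to 221 CPM), and did not pass (-0.51 ± 0.26, edgeR Benjamini-Hochberg adjusted p = 0.230). With TPX2, KIF2C and PLK4 that made 4 of 10 members whose groups did not overlap in CPM, where 26.3% of all genes did not. The SD of PLK1 was 56.2 CPM with JQ1, 51.6 CPM in E92K cells and 15.8 CPM with pinometostat, and the part of this in the result was not tested. PLK1 passed in 4 of 24 other settings, and in 0 of 8 fits that left out 1 library of the comparison. Without JQ1 replicate 1, which is in neither group, the edgeR adjusted p was 0.0304, and with the 8 libraries of both groups alone it was 0.00247. Both of those fits also called more of all genes than the main fit did. PLK4 lay at 52.6 to 58.6 CPM, above all controls, with an effect of 0.17 ± 0.10 that did not pass (edgeR Benjamini-Hochberg adjusted p = 0.331). The highest control of PLK4 was at 51.8 CPM. In TPM its groups overlapped, at 33.6 to 38.7 with pinometostat and 34.2 to 36.7 with DMSO. AURKA had 57.1 to 88.3 CPM (effect -0.26, interval -0.57 to 0.04) and AURKB 114 to 157 CPM (-0.24, -0.53 to 0.05). KIF14 (-0.06), ANLN (0.01), CCNB1 (0.00) and BUB1 (0.05) had effects within 0.06 of 0, and each interval stayed between -0.30 and 0.39.

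Pinometostat replicate 1 was the lowest of its group in 9 of 10 members and the highest in KIF2C. Its 10 genes summed to 927 CPM, against 1075 to 1112 CPM in the other 3 libraries and 1166 to 1260 CPM with DMSO. The 8 HEK293 markers also differed between these groups, summing to 293 to 368 TPM with pinometostat and 443 to 571 TPM with DMSO, and their part in the falls of TPX2 and KIF2C was not tested.

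The difference between the effects of JQ1 and pinometostat was tested directly, at unequal doses and times. It passed in 7 of 10 members (4 higher and 3 lower with JQ1), where 34.2% of all genes passed, 16.8% higher and 17.4% lower. PLK4 had the largest difference, -0.81 ± 0.10 (edgeR Benjamini-Hochberg adjusted p = 1.95e-05), followed by AURKB at 0.61 ± 0.14 (0.00247). The differences in TPX2 (0.47), KIF2C (0.45) and ANLN (0.51) were higher with JQ1, and those in KIF14 (-0.35) and AURKA (-0.39) lower. Those of PLK4 and AURKB held in all 23 other settings, while that of AURKA was called in 9 of 23 and that of KIF14 in 13 of 23. When 1 library was left out, AURKA was called in 2 of 8 fits and KIF14 in 3 of 8.

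Against E92K, the effect of JQ1 differed in 4 of 10 members, 1 higher and 3 lower, where 22.9% of all genes passed, 10.9% higher and 11.9% lower. These were AURKA (-0.65), PLK4 (-0.68), KIF14 (-0.53) and ANLN (0.53), and the first 3 held in all 22 other settings while ANLN was called in 17, its call being lost without E92K replicate 4 among others (adjusted p = 0.0505 with edgeR). The effects of pinometostat and E92K differed in 0 members (0.352% of all genes). Without adjustment, 2 of 10 members had an edgeR p below 0.05, where 17.4% of all genes did. DESeq2 called 2 members and 862 of all genes, where the main fit called 61 of all genes. TPX2 was nearest, with a difference of -0.40 ± 0.10 (edgeR Benjamini-Hochberg adjusted p = 0.0624), ahead of KIF2C (-0.29 ± 0.10, 0.132). In each difference of effects the H2A libraries with DMSO cancel, so that H2A cells with a compound are set directly against those with the other compound or against E92K cells with DMSO.

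Partners of the members were read from 9 lists of mitotic genes, 116 in all and each tested. With JQ1, 5 rose and 7 fell (10.3% of the 116, under the 17.6% of all genes), with a median of 0.02. SASS6, which builds the centriole cartwheel downstream of PLK4, fell by 0.85 (SE 0.11, adjusted p = 3.70e-05 with edgeR), from 34.8 ± 3.43 to 19.3 ± 1.97 CPM. SASS6 was the only call in the centriole and centrosome list (1 of 10), whose median was 0.03. BORA, the cofactor with which AURKA activates PLK1, fell by 0.67 (SE 0.15, adjusted p = 0.00379 with edgeR). Among mitotic entry genes CDC25A, a phosphatase that activates CDKs, fell by 0.29 and CKS2, a small CDK subunit, rose by 0.79. In the kinetochore list MIS12 rose (0.45, adjusted p = 0.0371 with edgeR) and DSN1 fell (-0.36, 0.0477). Both encode subunits of the same complex. Of the anaphase-promoting complex, ANAPC2 (0.58) and its ubiquitin-conjugating enzyme UBE2S (0.41) rose and CDC26 (-0.47) fell. Of the transcription factors, LIN9 (-0.61), a MuvB subunit, and RBL1 (-0.41), the pocket protein p107, fell, and NFYA (0.60), the subunit that contacts CCAAT, rose. The groups of MIS12, ANAPC2 and NFYA overlapped in CPM. No gene passed in the lists of the chromosomal passenger complex (0 of 9), the spindle checkpoint (0 of 10), mitotic kinesins and spindle proteins (0 of 20) and cytokinesis (0 of 9). The 10 checkpoint genes had a median of -0.22.

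With pinometostat 1 of the 116 genes rose and 4 fell (4.31%, beside 8.2% of all genes), with a median of 0.00. MYBL2, which encodes B-MYB, fell by 0.40 (SE 0.10, adjusted p = 0.0206 with edgeR), from 299 ± 22.0 to 226 ± 12.9 CPM. MAD1L1 (-0.66), a checkpoint protein, GTSE1 (-0.39), a microtubule-binding protein of G2 and S phase, and FZR1 (-0.37), an activator of the anaphase-promoting complex, fell, and the centriolar CEP135 (0.40) rose. The groups of GTSE1 overlapped in CPM. The 20 kinesins and spindle proteins, the list closest to TPX2 and KIF2C, had 0 calls and a median of -0.19. In the contrast list of 16 S phase genes, 4 fell with pinometostat: the replicative helicase genes MCM5 (-0.45), MCM7 (-0.46) and MCM3 (-0.35) and the licensing factor CDT1 (-0.48), the last named after its value was seen. With JQ1, CDC6 (0.42) and PCNA (0.35) of that list rose and 0 fell. In E92K cells 0 of the 116 genes and 0 of the 16 S phase genes passed.

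**Figure D5:**
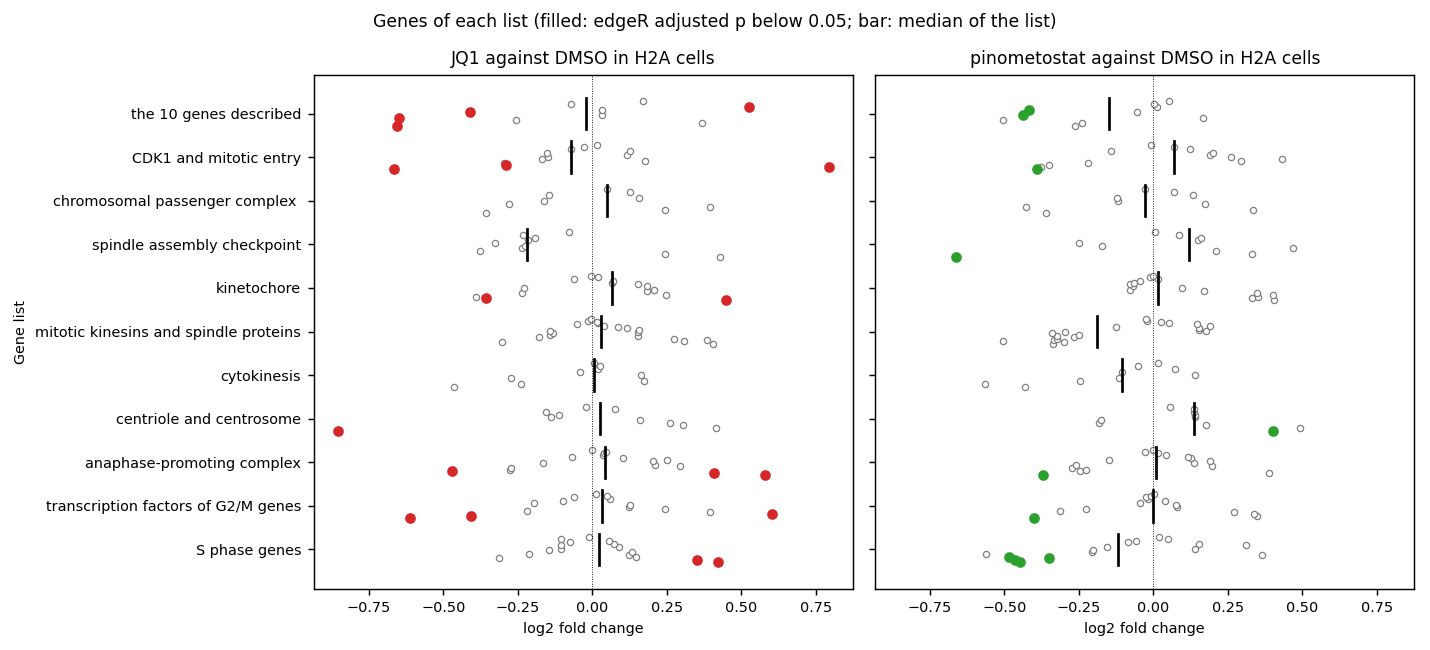
Log2 fold changes of the 10 genes and of the genes of 10 lists (9 mitotic and 1 of S phase) with JQ1 and with pinometostat; filled points have an edgeR adjusted p below 0.05 and black bars are medians. SASS6 at -0.85 is the leftmost filled point with JQ1, and MAD1L1 at -0.66 with pinometostat.

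The genes whose pattern was most like that of each member were looked for by Pearson's r of log2 CPM over the 16 libraries, among 11497 genes. The libraries of a group share their treatment, and no test was made. No member was among the 2 nearest genes of another member. PLK4 was nearest to KLHL9 (r = 0.98) and PRDM13 (0.98), and AURKA to ZHX2 (0.93) and CNOT6L (0.91). ANLN was nearest to RABGAP1 (0.97) and to NFYA (0.97) of the list above, and KIF2C to HNRNPM (0.96) and to MYBL2 (0.95). TPX2 had SMARCD2 (0.95) among its 2 nearest. AURKB was nearest to DDA1 (0.97) and BCL2L12 (0.93), and PLK1 to EIF4B (0.96) and SRPRA (0.96). KIF14 was nearest to DICER1 (0.93) and AC009779.2 (0.91), CCNB1 to ECI2 (0.92) and NUDCD2 (0.92), and BUB1 to PAM (0.94) and TUSC3 (0.93). Without JQ1 replicate 1 and E92K replicate 4, 3 of the 20 nearest genes stayed among the 2 nearest, namely DDA1 for AURKB, SRPRA for PLK1 and DICER1 for KIF14. The pairs of members given here follow no rule set beforehand. Among them, TPX2 and KIF2C had an r of 0.91 over the 16 libraries and of 0.63 with group means removed. TPX2 and KIF14 had 0.05 over the 16 libraries and 0.87 with group means removed. PLK1 and ANLN had 0.54 over the 16 libraries and 0.92 with group means removed, or 0.77 when JQ1 replicate 1 and E92K replicate 4 were also left out.

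All 10 members had the coordinates of GENCODE release 29 (GRCh38) in the count files. AURKA (ENSG00000087586) lies on chromosome 20, 56369389 to 56392337, minus strand, and TPX2 (ENSG00000088325) on the same chromosome, 31739271 to 31801805, plus strand. PLK4 (ENSG00000142731) lies on chromosome 4, 127880861 to 127899195, plus strand, and ANLN (ENSG00000011426) on chromosome 7, 36389806 to 36453791, plus strand. KIF14 (ENSG00000118193) and KIF2C (ENSG00000142945) are both on chromosome 1, at 200551497 to 200620734 (minus strand) and 44739818 to 44767767 (plus strand). AURKB (ENSG00000178999) is on chromosome 17, 8204733 to 8210600, minus strand, PLK1 (ENSG00000166851) on chromosome 16, 23677656 to 23690367, plus strand, CCNB1 (ENSG00000134057) on chromosome 5, 69167010 to 69178245, plus strand, and BUB1 (ENSG00000169679) on chromosome 2, 110637698 to 110678114, minus strand. KIF2C shares 175 exonic bases with AL592166.1 (5 to 18 counts) and PLK1 shares 553 with AC008870.3 (0 to 4 counts) and 59 with ERN2 (0 to 7 counts). Pseudogene copies of AURKA and BUB1 had at most 4 counts in any library.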

How the data were processed

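Total RNA of 16 HEK293T libraries was sequenced, and samples were grouped by their titles and treatment labels. The treatment text gives pinometostat in millimolar and the sample field in µM, which was used. For every library the authors deposited raw counts per gene as whole numbers, and the series table holds the same values in all 920000 cells. The deposited TPM values equal those counts divided by exonic length and scaled to a fixed sum, within 5.00e-05. For aligner, counter and strand setting, the entry is: not given in the sources used here. Coordinates are those of the files.

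Genes were kept with filterByExpr (minimum count 10, total 15). The 17306 left were scaled by TMM. In R 4.3.3, edgeR 4.0.16 fitted its quasi-likelihood model to the 16 libraries together, with group means as the design. All tests were two-sided, and p-values were adjusted by Benjamini-Hochberg across the 17306 genes. The SE is the fold change divided by the square root of F, and 95% intervals use 17.8 degrees of freedom. The test was tested on simulated data: genes changed by 1.5 fold were recovered in 22.4% for E92K (17076 genes), 19.4% for JQ1 (17060 genes) and 31.3% for pinometostat (17083 genes). At 2 fold the shares were 80.6%, 65.7% and 61.2%, with 5, 10 and 8 false calls in all.

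The members and lists were chosen with earlier results of these data known. Named were all members, up to 3 called genes per list and comparison against DMSO by smallest adjusted p, and the 2 most alike genes per member with a mean of at least 5 CPM, of which 1 is not reported here. Of 132 list genes, 131 matched by symbol and the other 1 by an older symbol. Other settings were DESeq2 1.42.0, limma 3.58.1 with voom, with library quality weights and on log2(TPM + 1) and log2(TPM + 0.1), DESeq2 size factors, library size, upper quartile, no filter, 50 counts in 4 libraries, the 8 libraries alone, a replicate block, both libraries of high mitochondrial share or all mitochondrial genes left out, and fits that omit each library of a comparison. Fits without JQ1 replicate 1 or E92K replicate 4 where they lie outside the comparison were chosen after seeing the data. Promoters are those of RefSeq (GRCh38.p14). Plots come from matplotlib 3.10.9 (Python 3.11.15).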

Additional observations from a re-analysis of the deposited data

Results flagged for a closer look

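In 3 of 40 sets of 4 CPM values (10 genes in 4 groups) the highest or lowest library stood apart from the rest by more than Dixon's 95% critical value, and chance flags about 1 in 20 such sets. PLK1 was at 77.1 CPM in JQ1 replicate 1 and at 177 to 196 CPM in the other JQ1 libraries. TPX2 was at 208.1 CPM in H2A replicate 1 with DMSO and at 171 to 176 CPM in the other libraries of that group. TPX2 was also at 206.7 CPM in JQ1 replicate 4, with 178 to 182 CPM in the other 3.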

How the results depend on the processing

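Of 1380 effects of members under other settings, 1291 stayed on their side of the threshold, 58 lost a call, 31 gained one and 0 called effects changed sign. Of the 1291, 122 changed sign without being called in either fit.

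The settings also differed in how many of all genes they called, as listed in the next paragraph for part of them. Changes in the counts of members were not set against those numbers. Members called with JQ1 went from 4 to 5 with DESeq2 (AURKB gained) and with quality weights (BUB1 gained), to 2 with the 8 libraries alone, and from 2 to 4 as single libraries were left out, with 2 without JQ1 replicate 2. With pinometostat the count of 2 became 4 with quality weights, 1 without the filter, 0 on both TPM scales, and 1 to 2 as single libraries were left out, with 1 without H2A replicate 1 with DMSO or without pinometostat replicate 1. The difference between JQ1 and pinometostat went from 7 to 2 on both TPM scales. That between pinometostat and E92K went from 0 to 2 with DESeq2 and without JQ1 replicate 1 outside the comparison, to 4 with quality weights or both libraries of high mitochondrial share left out, and to 1 with DESeq2 size factors, the filter of 50 counts, the 8 libraries alone or mitochondrial genes left out.

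Over all genes, E92K had 0 calls, 4 with DESeq2, without the filter and without JQ1 replicate 1 outside the comparison, 1098 with quality weights, 3 with both libraries of high mitochondrial share left out, and 0 to 1 as single libraries were left out (1 without H2A replicate 1 with DMSO). JQ1 had 3044, 5762 with quality weights and 1872 with the 8 libraries. Pinometostat had 1419, 2348 with DESeq2, 5548 with quality weights, 4610 with the 8 libraries, 457 and 403 on log2(TPM + 1) and log2(TPM + 0.1), 4782 with both libraries left out, 3701 without JQ1 replicate 1 outside the comparison, and 283 to 1546 as single libraries were left out. JQ1 against pinometostat had 5919, 9180 with quality weights and 3684 and 3608 on TPM. JQ1 against E92K had 3962, 7819 with quality weights, 2276 with the 8 libraries and 2180 and 2172 on TPM. Pinometostat against E92K had 61, 862 with DESeq2, 3160 with quality weights, 148 with DESeq2 size factors, 104 with library size, 306 without the filter, 111 with 50 counts, 383 with the 8 libraries, 0 on both TPM scales, 1566 with both libraries left out, 178 without mitochondrial genes, 1789 without JQ1 replicate 1 outside the comparison, and 0 to 9 as single libraries were left out. The causes were not tested.

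Deviations of same-numbered samples correlated at -0.56 to 0.24, with 2 of 24 pairs above 0.1. They were not set against those of differently numbered samples, so whether replicate numbers pair the samples cannot be decided here. With the replicate block, pinometostat had 1 member (TPX2) and 534 genes called, the difference between pinometostat and E92K 0 genes, and the difference between JQ1 and pinometostat lost AURKA and KIF14. It changed no other call of a member.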
